A study of Mus musculus with 12 samples.

Results

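The 8 genes described here, Cgas, Sting1, Mavs, Tbk1, Ikbke, Irf3, Trex1 and Samhd1, form the cytosolic nucleic acid sensing route. They were taken by name from the 30994 gene rows of the count tables, and each of the 8 was found. Sting1 is listed under its older symbol Tmem173 in the annotation. The libraries came from SIM-A9, a mouse microglial cell line from the C57BL/6 strain. The study's title concerns early transcription under C13, which it describes as an inhibitor of the kinase MOK, in microglial cells given aggregates of TDP-43, an RNA-binding protein.

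All 4 groups received 10 µM polymixin B for 1 h in serum-free medium before anything else, so the control cells carried it too. The first group then received 10 µM C13 for 1 h and TDP-43 aggregates at 5 µg/ml. In the second group, 10 µM C13 was followed by sham aggregates at the same concentration. The third group received the solvent DMSO and TDP-43 aggregates, and the fourth DMSO and sham aggregates. After 2.5 h of aggregates, 4-thiouridine was added at 100 µM for 90 min, which gave 4 h of aggregates in total. Each group held 3 libraries labelled as biological replicates of this 1 cell line. Nothing further is given on how the cultures were separated, so p-values measure the spread between these libraries. The RNA was alkylated with iodoacetamide and sequenced from its 3′ ends (SLAM-seq). Reads that carry the label were counted as nascent RNA, and all reads as total RNA.

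DNA in the cytosol is bound by cGAS, which makes the cyclic dinucleotide cGAMP. cGAMP binds STING in the endoplasmic reticulum membrane, and STING recruits the kinase TBK1 and its relative IKKε, the product of Ikbke. Double-stranded RNA instead reaches the same kinases through RIG-I-like receptors and the mitochondrial adaptor MAVS. The kinases phosphorylate the transcription factor IRF3, which turns on type I interferon and interferon-stimulated genes. TREX1 degrades cytosolic DNA and SAMHD1 breaks down deoxynucleotides, and both limit this route. In microglia the route is a known source of interferon signalling.

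In total RNA as counted, Ikbke was the most abundant of the 8 genes and Trex1 the least abundant. None of the 8 genes passed the test in any comparison of total RNA, where 0% of all genes tested did, or of nascent RNA, where 0% or 0.0141% did. In such bulk samples, fewer cells that express a gene and less RNA per cell cannot be told apart. Of the 8 genes, total Ikbke and nascent Cgas had the smallest unadjusted p-values by edgeR, and both were low in C13 and sham cells. Each lay below DMSO and sham cells in every library, as did 5.72% of all genes in total RNA and 9.14% in nascent RNA. Trex1 stood apart in another measure, the share of its reads that was nascent. That share was 31.6% in the pooled libraries, against 3.24% of all reads. Trex1 shares its annotated 3′ end with the gene Atrip, and how reads there were assigned is not given.

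The start-site windows of 3 of these genes are printed because the account turns on them or because a motif was found there. Ikbke had the highest total level, Trex1 had the highest nascent share, and Samhd1 had the only motif match. Each sequence is the RefSeq window on GRCm38.p6 of 300 bases around the annotated start, read 5′ to 3′ on the gene's strand. Capitals mark the letters that match a searched motif.
Ikbke promoter, chr1:131279514-131279813, minus strand: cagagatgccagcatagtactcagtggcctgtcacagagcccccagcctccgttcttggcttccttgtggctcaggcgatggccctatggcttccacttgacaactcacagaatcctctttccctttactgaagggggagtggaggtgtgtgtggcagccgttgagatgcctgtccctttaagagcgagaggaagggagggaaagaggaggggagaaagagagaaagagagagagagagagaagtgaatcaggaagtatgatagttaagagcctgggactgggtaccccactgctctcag
Trex1 promoter, chr9:109059674-109059973, minus strand: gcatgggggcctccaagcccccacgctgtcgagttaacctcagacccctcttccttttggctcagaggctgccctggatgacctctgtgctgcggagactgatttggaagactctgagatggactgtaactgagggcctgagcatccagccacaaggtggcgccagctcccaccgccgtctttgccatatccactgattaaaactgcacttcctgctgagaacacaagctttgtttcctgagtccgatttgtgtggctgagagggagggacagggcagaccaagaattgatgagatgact
Samhd1 promoter, chr2:157135047-157135346, minus strand: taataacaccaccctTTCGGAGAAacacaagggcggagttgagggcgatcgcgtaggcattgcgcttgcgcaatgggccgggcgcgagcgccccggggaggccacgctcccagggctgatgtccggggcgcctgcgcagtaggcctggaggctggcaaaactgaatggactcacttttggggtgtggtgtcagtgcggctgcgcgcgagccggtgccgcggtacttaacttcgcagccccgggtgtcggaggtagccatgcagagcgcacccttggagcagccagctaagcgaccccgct
The Trex1 window lies inside the annotated gene Atrip, which has the same strand. Windows were read for 7 genes, 8 windows in all because Trex1 has 2 annotated starts, and Sting1 was not searched. The interferon-stimulated response element core, GAAA and again GAAA with 2 bases of any kind between them, was sought on both strands and had a match in 0 of the 8 windows. It matched 1131 of all 32851 windows of this length, or 3.44%. The gamma-activated site, TTCNNNGAA, matched only in Samhd1, at position -235 from the start, and in 8.3% of all windows. These matches describe letters in a window and not binding.

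Total reads per library ranged from 17436397 to 41779882, and nascent reads from 552042 to 2722812. Nascent reads made up 1.88% to 7.11% of a library, with the lowest share in C13 and sham replicate 3 and the highest in DMSO and sham replicate 2. On the leading principal component of total RNA, which held 16.2% of the variance, C13 and sham replicate 3 scored 93.3 and DMSO and TDP-43 replicate 3 scored 91.7. The other 10 libraries scored between -31.0 and -1.73. Both libraries therefore stand apart from the others of their groups, and results that rest on them are given with and without them. Of 12 microglia and macrophage markers, 12 were tested, and their summed level was 897 to 1433 CPM (reads per 1e6 scaled library reads), with the defining marker Tmem119 under 1 CPM. All 5 astrocyte, 5 neuron and 5 fibroblast markers averaged under 1 CPM. Mbp (21.8 CPM) and the endothelial receptor gene Kdr (121 CPM) were the markers of other cell types above 1 CPM. Mok, the gene of the stated target of C13, had 0 to 10.7 CPM of total RNA and 2 nascent reads in all 12 libraries together.

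The 8 genes differed widely in total level. CPM values are not corrected for gene length here, because each transcript is read from its 3′ end. Ikbke averaged 180 CPM over the 12 libraries, Sting1 117 CPM and Samhd1 72.9 CPM. Mavs averaged 20.4 CPM, Cgas 16.4 CPM, Tbk1 11.4 CPM, Irf3 10.2 CPM and Trex1 8.14 CPM. The upper 3 genes lay apart from the lower 5: Samhd1 was above Mavs in 12 of 12 libraries, with no overlap of their ranges. Among the lower 5 the order was loose, since Mavs exceeded Cgas in 7 of 12 libraries and Tbk1 exceeded Irf3 in 7 of 12. Sting1 exceeded Samhd1 in 12 of 12 libraries and Ikbke exceeded Sting1 in 11 of 12.

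Part of that order depends on how reads were tallied. All 24 counts of Sting1 were multiples of 3, and those of Ikbke, Mavs and Trex1 were multiples of 2. Such a common factor was present in 19.3% of the 9932 genes that averaged over 50 total reads. Divided by its factor, Ikbke averaged 90.0 CPM, Sting1 39.2 CPM, Mavs 10.2 CPM and Trex1 4.07 CPM. This places Samhd1 above Sting1, and Cgas, Tbk1 and, by a small margin, Irf3 above Mavs. Irf3 was not divided, although its total counts were multiples of 3 in 10 of 12 libraries. Its place relative to Trex1 may therefore depend on the tally too. What made the factors was not tested. A factor cancels in a fold change between libraries.

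**Figure D1:**
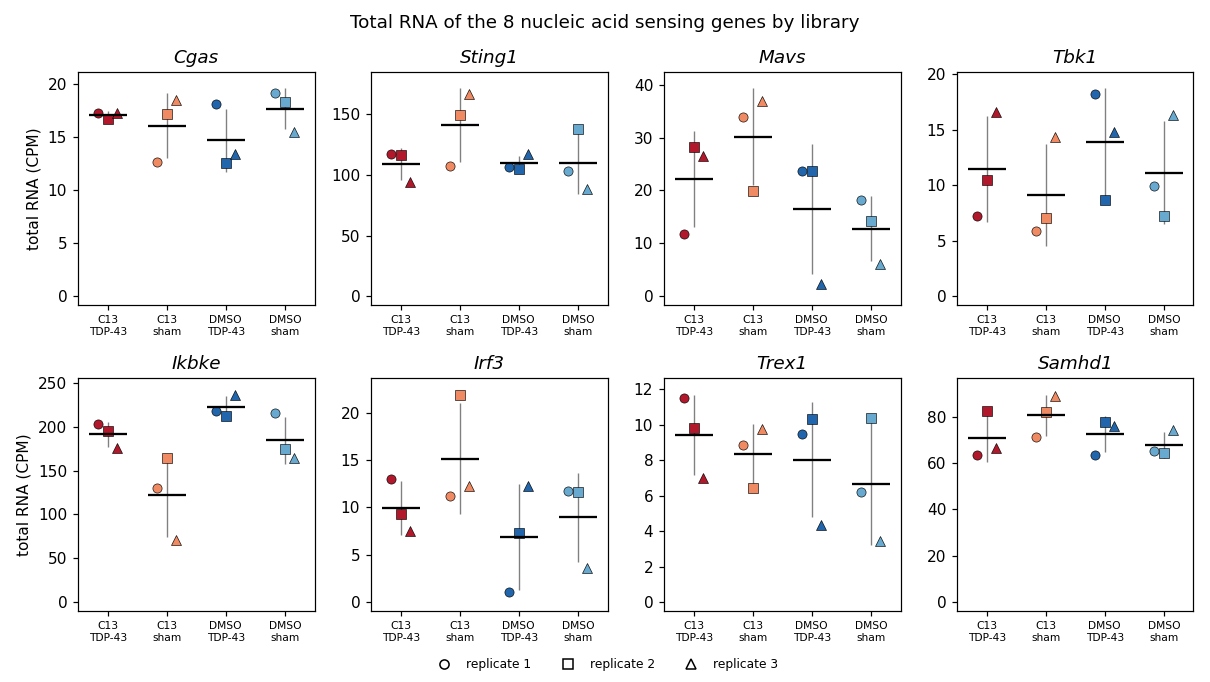
Total RNA of the 8 genes in CPM (vertical axis, from 0), 1 panel per gene, with C13 and TDP-43, C13 and sham, DMSO and TDP-43, and DMSO and sham from left to right. Points are single libraries, with the replicate given by shape, horizontal bars are group means and vertical lines 1 SD (n = 3). Ikbke in C13 and sham cells (70.4 to 164 CPM) lies below every library of the other 3 groups, the lowest of which is at 165 CPM. The share of all genes with such a group was not counted.

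The spread between libraries differed widely between the genes. Samhd1 had the lowest coefficient of variation of total CPM over the 12 libraries, 11.8%, followed by Cgas with 14.2% and Sting1 with 19.6%. Ikbke varied by 25.2%, Trex1 by 31.6% and Tbk1 by 38.6%. Irf3 (51.3%) and Mavs (51.6%) varied most. The genes with few reads were not always the most variable, as Trex1 had the fewest reads and varied less than Tbk1, Irf3 and Mavs.

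Among the 11827 genes tested in total RNA, edgeR's quasi-likelihood test with Benjamini-Hochberg adjustment called 0 genes (0%) at an adjusted p of 0.05 in each of 7 comparisons. The members accordingly had 0 calls of 8. Unadjusted p-values under 0.05 were found for 4.08% to 8.84% of all genes, depending on the comparison. Of the 8 members, Ikbke alone had such a p, in 4 of the 7 comparisons. Without C13 and sham replicate 3, which stood apart, Ikbke had such a p only in the averaged aggregate comparison. Without both libraries that stood apart, 0 members had such a p in that comparison. DESeq2 called 8 to 108 genes per comparison, with 0 members among them.

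In nascent RNA, 7 of the 8 genes passed the filter on low counts, and Mavs did not. Of the 7078 genes tested, edgeR called 1 gene (0.0141%) in the averaged aggregate comparison and 0 (0%) in the other 6, with 0 members called throughout. The 1 gene was Mff, a mitochondrial fission factor gene, named here after its value was seen, with -4.35 ± 0.67 (log2 fold change ± SE) and an adjusted p of 0.0286 by edgeR. Unadjusted p-values under 0.05 were found for 3.19% to 8.45% of nascent genes. Among the 7 members, Cgas alone had such a p, in 1 comparison. Without C13 and sham replicate 3, 0 members had such a p in that comparison. DESeq2 called 7 to 72 nascent genes per comparison and 0 members.

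Cgas encodes the DNA sensor of the route (chr9:78430526-78443237, GRCm38, minus strand). Its total level was 17.3, 16.7 and 17.3 CPM in C13 and TDP-43 cells, and 12.6, 17.2 and 18.5 CPM in C13 and sham cells. With DMSO it was 18.1, 12.6 and 13.4 CPM with TDP-43 aggregates and 19.2, 18.3 and 15.5 CPM with sham aggregates. The 4 groups overlapped in total RNA, and the whole range was 12.6 to 19.2 CPM.

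Nascent Cgas was sparse and uneven. It had 64, 109 and 22 nascent reads in C13 and TDP-43 cells, and 3, 12 and 0 reads in C13 and sham cells. DMSO cells had 25, 34 and 42 reads with TDP-43 aggregates and 34, 76 and 89 reads with sham aggregates. C13 and sham cells thus held the 3 lowest values of the 12 libraries. As CPM, they had 5.07, 21.2 and 0, below the 22.2 CPM that was lowest elsewhere. How many nascent genes had a group below all other libraries was not counted.

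Between the C13 groups, nascent Cgas was separated, with TDP-43 cells above sham cells in every library, as were 7.87% of all nascent genes in that direction. The log2 fold change was 2.85 (SE 1.28), with an edgeR unadjusted p of 0.0394 and an adjusted p of 0.570, and 5.19% of nascent genes were higher at a p under 0.05. Without C13 and sham replicate 3, the library with 0 reads that also stood apart, it was 2.36. Without replicate 2 of the same group it was 4.58, since only 3 reads were then left in that group. Against DMSO and sham cells, C13 and sham cells had lower nascent Cgas in every library, as did 9.14% of nascent genes. That log2 fold change was -2.34 (SE 1.26, edgeR adjusted p = 0.746), and it ranged from -4.09 to -1.68 as single libraries were left out. With TDP-43 aggregates the C13 and DMSO groups overlapped. The difference between the responses to C13 with and without TDP-43 had a log2 value of 2.76 (SE 1.71, edgeR adjusted p = 0.769). It was 4.52 without C13 and sham replicate 2, 2.35 without C13 and sham replicate 3 and 2.87 without both libraries that stood apart. The lowest value as single libraries were left out was 2.10, without DMSO and sham replicate 3.

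A joint fit of nascent and remaining reads asked whether nascent Cgas moved apart from the rest of its reads. Between TDP-43 and sham cells under C13 the change was 3.40 on the log2 scale (SE 1.50), with an adjusted p of 0.849 by edgeR. The median of all 7078 genes in that comparison was 0.20. Without C13 and sham replicate 3 the Cgas value was 2.35. The annotated pseudogene Gm8093 overlaps the end of Cgas on the other strand, and whether counting used strand is not given in the sources used here.

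**Figure D2:**
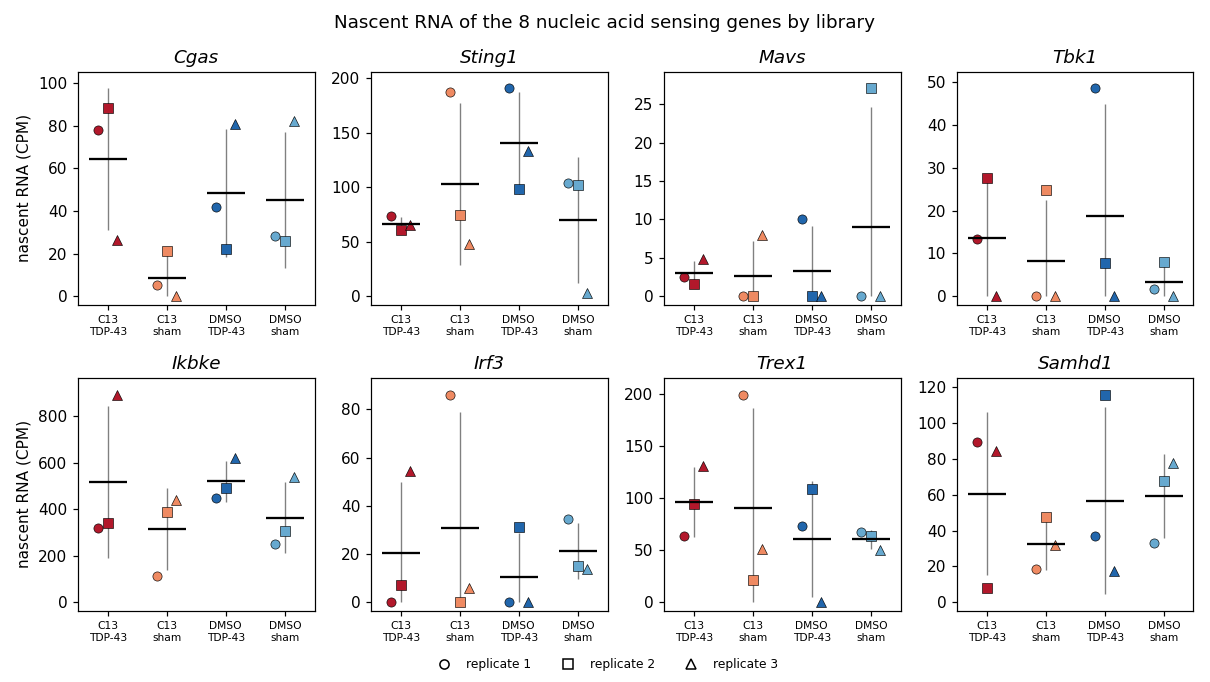
Nascent RNA of the 8 genes in CPM of nascent reads (vertical axis, from 0), 1 panel per gene, with C13 and TDP-43, C13 and sham, DMSO and TDP-43, and DMSO and sham from left to right. Points are single libraries, with the replicate given by shape, horizontal bars are group means and vertical lines 1 SD (n = 3), drawn no lower than 0. Cgas is at 0 to 21.2 CPM in C13 and sham cells, and Tbk1, Irf3 and Mavs have 4 to 6 libraries at 0.

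Sting1 encodes the membrane adaptor on the DNA side (chromosome 18, minus strand). Total Sting1 was 117, 117 and 94.0 CPM in C13 and TDP-43 cells and 108, 149 and 167 CPM in C13 and sham cells. DMSO cells had 107, 105 and 117 CPM with TDP-43 aggregates and 104, 138 and 88.1 CPM with sham aggregates. C13 and sham replicates 2 and 3 held the highest values, and all 4 groups overlapped. The log2 fold change under C13, TDP-43 against sham, was -0.37 (SE 0.22, edgeR adjusted p = 0.667), and -0.23 without C13 and sham replicate 3.

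Nascent Sting1 was 73.3, 60.7 and 65.2 CPM in C13 and TDP-43 cells, below the 191, 98.1 and 133 CPM of DMSO and TDP-43 cells. These groups did not overlap, as for 4.34% of nascent genes in that direction. The log2 fold change was -1.08 (SE 0.98, edgeR adjusted p = 0.998). C13 and sham cells had 188, 74.3 and 47.6 CPM, and DMSO and sham cells 104, 102 and 2.76 CPM. The 2.76 CPM stood for 3 reads in replicate 3. Between TDP-43 and sham cells under DMSO the log2 fold change was 1.01 (SE 0.97). It was 0.42 without that replicate, and its direction turned, to -0.090, when nascent reads were scaled to total library sizes.

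Mavs encodes the mitochondrial adaptor on the RNA side (chr2:131234063-131248025, plus strand). Its total level was 11.8, 28.2 and 26.6 CPM in C13 and TDP-43 cells and 33.8, 19.8 and 36.9 CPM in C13 and sham cells. DMSO cells had 23.6, 23.6 and 2.30 CPM with TDP-43 aggregates and 18.1, 14.2 and 6.11 CPM with sham aggregates. C13 and sham cells lay above DMSO and sham cells in every library, as did 4.41% of all genes, while the groups given TDP-43 overlapped. The lowest value, 2.30 CPM, came from DMSO and TDP-43 replicate 3, which stood apart.

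The log2 fold change of total Mavs between C13 and DMSO sham cells was 1.24 (SE 0.64, edgeR adjusted p = 0.847). It was 0.89 without DMSO and sham replicate 3 and 1.06 without both libraries that stood apart. Averaged over both aggregate arms, C13 against DMSO gave 0.83 (SE 0.45, edgeR adjusted p = 0.999), and 0.58 without DMSO and TDP-43 replicate 3. Nascent Mavs had 0 reads in 6 of 12 libraries and 2 to 6 reads in 5 of them. The other library, DMSO and sham replicate 2, had 80 of the 98 nascent reads. In exact two-sided permutation tests of nascent Mavs the p-values were 0.68 to 1 over 6 comparisons (adjusted p = 1 for each), where 3 libraries against 3 cannot give less than 0.1.

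Tbk1 encodes the kinase shared by both branches (chr10:121546455-121586787, minus strand). Total Tbk1 was 7.23, 10.5 and 16.6 CPM in C13 and TDP-43 cells and 5.89, 7.05 and 14.4 CPM in C13 and sham cells. DMSO cells had 18.2, 8.68 and 14.8 CPM with TDP-43 aggregates and 9.92, 7.20 and 16.3 CPM with sham aggregates. The groups overlapped in every pairwise comparison, and each held a library above 14 CPM. Nascent Tbk1 had 0 reads in 5 of 12 libraries and at most 34 in any. Under DMSO it had 29, 12 and 0 reads with TDP-43 aggregates and 2, 24 and 0 reads with sham aggregates. That log2 difference was 2.42 ± 2.07 (SE), with an adjusted p of 0.9999 by edgeR. It was 0.30 without DMSO and TDP-43 replicate 1 and 4.26 without DMSO and sham replicate 2.

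Ikbke encodes IKKε, the kinase relative of TBK1 that is known to be inducible in immune cells (chr1:131254343-131279606, minus strand). Total Ikbke was 203, 195 and 175 CPM in C13 and TDP-43 cells and 131, 164 and 70.4 CPM in C13 and sham cells. DMSO cells had 218, 212 and 237 CPM with TDP-43 aggregates and 215, 174 and 165 CPM with sham aggregates. All 3 libraries of C13 and sham cells were below all 9 others. The margin was small, from 164.3 CPM in C13 and sham replicate 2 to 164.8 CPM in DMSO and sham replicate 3. In the plot of total RNA by library, no other of the 8 genes had a group apart from all other libraries. How many of all genes had such a pattern was not counted.

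Groups did not overlap in 3 of the 4 pairwise comparisons of total Ikbke. C13 cells lay below DMSO cells with TDP-43 aggregates (6.48% of all genes did so) and with sham aggregates (5.72%). TDP-43 cells lay above sham cells under C13 (6.69% of all genes did so), and the DMSO groups overlapped. With sham aggregates the log2 fold change of C13 against DMSO was -0.60 (SE 0.25), with an edgeR unadjusted p of 0.0297 and an adjusted p of 0.801. With C13, TDP-43 against sham gave 0.65 (SE 0.25), an edgeR unadjusted p of 0.0201 and an adjusted p of 0.531. At an unadjusted p under 0.05, 4.05% of all genes were lower in the first of these comparisons and 5.12% higher in the second.

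Averaged over the drug arms, TDP-43 against sham gave 0.46 ± 0.18 in log2 (SE) for Ikbke, with an adjusted p of 0.948 by edgeR. Averaged over the aggregate arms, C13 against DMSO gave -0.41 (SE 0.18, edgeR adjusted p = 0.999). At an unadjusted p under 0.05, 2.39% of all genes were higher in the averaged aggregate comparison and 2.33% lower in the averaged C13 comparison. The response to C13 with TDP-43 minus that with sham was 0.39 (SE 0.35, edgeR adjusted p = 0.864). These values were smaller without C13 and sham replicate 3, which stood apart from the other libraries. Without it the C13 against DMSO value with sham was -0.31 (edgeR unadjusted p = 0.143). The TDP-43 against sham value with C13 was then 0.38 (edgeR unadjusted p = 0.0845). The averaged values were then 0.32 for aggregates and -0.26 for C13, and the difference of responses 0.11.

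Nascent Ikbke overlapped in every pairwise comparison. It was 320, 340 and 894 CPM in C13 and TDP-43 cells and 112, 389 and 440 CPM in C13 and sham cells. DMSO cells had 448, 492 and 621 CPM with TDP-43 aggregates and 249, 306 and 538 CPM with sham aggregates. The lowest value was C13 and sham replicate 1 and the highest C13 and TDP-43 replicate 3. Averaged over the drug arms, TDP-43 against sham gave 0.62 ± 0.42 in log2 (SE), with an adjusted p of 0.948 by edgeR, which was 0.32 without that highest library. The antisense genes Gm28914 and Gm28913 inside Ikbke had 0 and 7 total reads in all 12 libraries.

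Irf3 encodes the transcription factor at the end of the route (chr7:44997648-45002848, plus strand). Total Irf3 was 13.02, 9.31 and 7.48 CPM in C13 and TDP-43 cells and 11.3, 21.9 and 12.3 CPM in C13 and sham cells. DMSO cells had 1.07, 7.27 and 12.3 CPM with TDP-43 aggregates and 11.7, 11.6 and 3.57 CPM with sham aggregates. Single libraries set the extremes, and no group lay apart. The log2 fold change of C13 against DMSO, averaged over the aggregate arms, was 0.64 (SE 0.47, edgeR adjusted p = 0.999), and 0.39 without DMSO and TDP-43 replicate 1, the library at 1.07 CPM. It was 1.01 without DMSO and TDP-43 replicate 3. Nascent Irf3 had 0 reads in 4 of 12 libraries and 51 at most, and all of its nascent counts were multiples of 3. Bcl2l12, which overlaps the start of Irf3 on the other strand, had 980 total reads against 3731 for Irf3.

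Trex1 encodes the exonuclease that clears cytosolic DNA (chr9:109057933-109059734, minus strand). Total Trex1 was 11.5, 9.84 and 7.02 CPM in C13 and TDP-43 cells and 8.89, 6.45 and 9.74 CPM in C13 and sham cells. DMSO cells had 9.46, 10.3 and 4.35 CPM with TDP-43 aggregates and 6.21, 10.4 and 3.47 CPM with sham aggregates. All groups overlapped, and the values under 5 CPM were both replicate 3 of DMSO groups. Nascent Trex1 was 63.5, 93.9 and 130 CPM in C13 and TDP-43 cells and 199, 21.2 and 51.6 CPM in C13 and sham cells. DMSO cells had 73.6, 109 and 0 CPM with TDP-43 aggregates and 67.6, 63.6 and 49.7 CPM with sham aggregates. The groups overlapped here too, with the highest and the second lowest library both in C13 and sham cells.

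Samhd1 encodes the deoxynucleotide hydrolase (chr2:157097533-157135265, minus strand). Total Samhd1 was 63.4, 82.5 and 66.5 CPM in C13 and TDP-43 cells and 71.2, 81.9 and 88.9 CPM in C13 and sham cells. DMSO cells had 63.5, 77.9 and 75.8 CPM with TDP-43 aggregates and 65.1, 64.2 and 74.3 CPM with sham aggregates. This was the most even of the 8 genes, and its groups overlapped. The C13 against DMSO log2 fold change with sham aggregates was 0.25 (SE 0.20, edgeR adjusted p = 0.935), and 0.18 without C13 and sham replicate 3. Nascent Samhd1 ranged from 8.10 to 116 CPM, with a median of 42.3 CPM, and its groups overlapped.

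**Figure D3:**
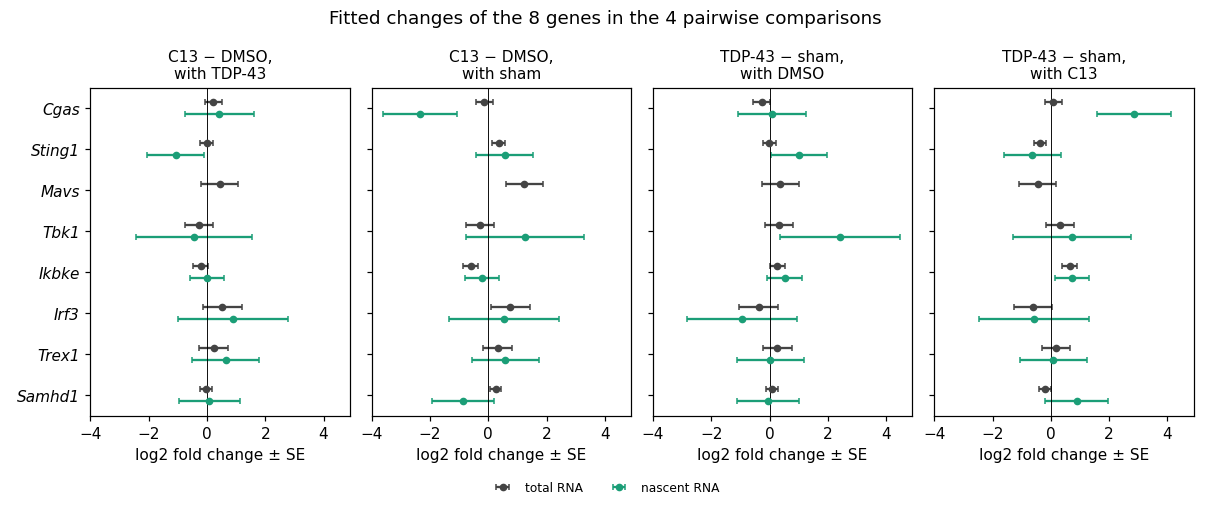
Log2 fold changes (horizontal axis) of the 8 genes (rows) in the 4 pairwise comparisons, in total RNA (dark) and nascent RNA (green), with 1 standard error to each side from the edgeR fit. Mavs has no nascent value because it did not pass the filter on low counts. Nascent Cgas in TDP-43 against sham cells under C13 (2.85) and total Ikbke (0.65 and -0.60) have the smallest p-values, and none passed the adjusted threshold.

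The share of a gene's reads that was nascent differed widely between the 8 genes. This share depends on how new the RNA is, and also on how many labelled positions the counted stretch holds, so it is not a half-life. Over the 12 libraries pooled, 966 of 3060 Trex1 reads were nascent, or 31.6%. That placed Trex1 at the 99.7 percentile of the 11827 genes tested in total RNA, whose median was 2.50%. The upper group also held Cgas with 8.25%, Ikbke with 7.57% and Irf3 with 6.92%, at percentiles of 94.4, 93.1 and 91.6. Tbk1 had 2.87%, Samhd1 2.66% and Sting1 2.55%, all near the median gene. Mavs was lowest with 1.28%.

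For Trex1 the share was 18.2% to 44.6% in C13 and TDP-43 cells and 6.13% to 76.6% in C13 and sham cells. In DMSO cells it was 0% to 37.9% with TDP-43 aggregates and 40.3% to 49.0% with sham aggregates. It exceeded the share of the whole library in 11 of 12 libraries. DMSO and TDP-43 replicate 3, with 0 nascent Trex1 reads, was the exception. The pooled share was 29.1% to 35.7% as single libraries were left out and 37.6% without both libraries that stood apart. Trex1 lies inside Atrip on the same strand, and both annotated genes have the same 3′ end, at base 109057933. Pooled Atrip reads were 4.78% nascent. The neighbour Shisa5 had 2.60%. How reads in the shared stretch of Trex1 and Atrip were assigned is not given in the sources used here. The libraries read 3′ ends, so that assignment bears on the level and the share of both genes.

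Ikbke also exceeded the library share in 11 of 12 libraries and Cgas in 10. Irf3 did so in 6 of 12, and its pooled value combined libraries at 0% with 1 at 26.2%. The Mavs share was above that of the library only in DMSO and sham replicate 2, and without that library its pooled share was 0.252%. In the joint fit, 0 of 7 genes had a nascent share that passed the test in any of the 7 comparisons. Of all 7078 genes, 1 (0.0141%), again Mff, passed in the averaged aggregate comparison and 0 (0%) in the other 6. At an unadjusted p under 0.05 in TDP-43 against sham cells under C13, 5.65% of all genes were found, and Cgas alone of the 7.

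**Figure D4:**
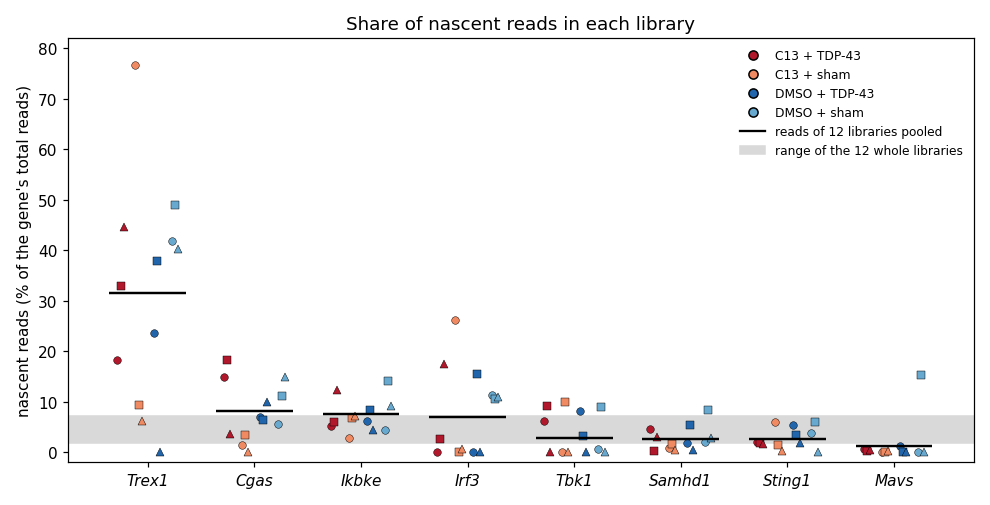
Nascent reads as a percentage of each gene's total reads (vertical axis, from 0) for the 8 genes, ordered by the share in all 12 libraries pooled (black bars). Points are single libraries coloured by group, with C13 and TDP-43, C13 and sham, DMSO and TDP-43, and DMSO and sham from left to right, and the grey band spans the share in the 12 whole libraries (1.88% to 7.11%). Trex1 is pooled at 31.6%, above the band in 10 of 12 libraries and over the next gene, Cgas, at 8.25%.

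Around the 8 genes, 6 lists of other pathway genes were counted, with all 12 libraries and in total RNA unless stated otherwise. In each list 0 genes passed the adjusted test in each of the 7 comparisons. The list of transcription factors and interferon outputs had the most one-sided values. In the averaged aggregate comparison, 13 of 16 tested genes had values above 0 and 3 below. The median log2 fold change of the list was 0.73, against -0.01 for all genes tested. At an unadjusted p under 0.05, 5 of 16 were higher and 0 lower, where 2.39% of all genes were higher. These genes had been seen in earlier results of the same libraries.

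Cxcl10, which encodes a chemokine induced by interferon, averaged 45.2 ± 23.2 CPM in C13 and TDP-43 cells and 10.2 ± 3.66 CPM in C13 and sham cells (SD, n = 3 each). In DMSO cells it averaged 36.1 ± 11.3 CPM with TDP-43 aggregates and 19.0 ± 2.09 CPM with sham aggregates. Its averaged aggregate log2 fold change was 1.54 (SE 0.28, edgeR adjusted p = 0.325). Rsad2, which encodes the antiviral protein viperin, averaged 120 ± 25.2 CPM in C13 and TDP-43 cells and 51.7 ± 9.75 CPM in C13 and sham cells. In DMSO cells it averaged 132 ± 37.4 CPM with TDP-43 aggregates and 79.5 ± 16.9 CPM with sham aggregates. Its log2 fold change was 0.98 (SE 0.18, edgeR adjusted p = 0.325). Both outputs thus had higher mean levels with TDP-43 aggregates in both arms, without passing the adjusted test. They were picked as the 2 genes of the list with the smallest edgeR p in this comparison, so they are no separate evidence.

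For C13 against DMSO, averaged over the aggregate arms, 6 of the 16 outputs had values above 0 and 10 below, with a median of -0.19 against -0.01 for all genes. Irf7, a transcription factor that amplifies interferon, had a log2 difference of -1.12 ± 0.47 (SE), with an adjusted p of 0.999 by edgeR. Its level was 5.31 ± 1.48 CPM in C13 and TDP-43 cells, 2.09 ± 1.35 CPM in C13 and sham cells, 7.98 ± 3.60 CPM in DMSO and TDP-43 cells and 6.57 ± 4.30 CPM in DMSO and sham cells. Rtp4, an interferon-stimulated gene, had -1.01 (SE 0.35, edgeR adjusted p = 0.999). In both, the lowest group mean was that of C13 and sham cells. Irf7 and Rtp4 were picked as the 2 genes of the list with the smallest edgeR p in this C13 comparison.

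The lists upstream of the kinases were close to balanced in the averaged aggregate comparison. Of the DNA sensors and cofactors of cGAS, 6 of 12 had values above 0, with a median of -0.04. Ifi203, of the interferon-inducible PYHIN family, had the smallest p, with a log2 difference of -2.03 ± 0.59 (SE) and an adjusted p of 0.948 by edgeR. It averaged 1.54 ± 0.64 CPM in C13 and TDP-43 cells and 12.8 ± 8.02 CPM in C13 and sham cells, and 5.65 ± 4.56 and 11.3 ± 7.71 CPM in the DMSO cells given TDP-43 and sham aggregates. Of the RNA sensors and regulators of MAVS, 9 of 15 had values above 0, with a median of 0.08. Trim25, the ubiquitin ligase of RIG-I, had 0.71 (SE 0.35, edgeR adjusted p = 0.948). Ifih1, the gene of the RNA sensor MDA5, averaged 1.42 CPM in C13 and TDP-43 cells and 0.806 CPM in C13 and sham cells. In DMSO cells Ifih1 averaged 0 CPM with TDP-43 aggregates and 0.0845 CPM with sham aggregates, too few reads for a fold change.

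Among the STING trafficking and regulator genes, 11 of 17 had values above 0 in the averaged aggregate comparison, with a median of 0.08. Atg9a, an autophagy gene that limits STING signalling, had 0.52 (SE 0.24, edgeR adjusted p = 0.948). Of the scaffolds and ubiquitin enzymes of TBK1 and IKKε, 7 of 15 had values above 0, with a median of -0.07. Ticam1, the gene of the adaptor TRIF, had -0.64 (SE 0.34, edgeR adjusted p = 0.948). Of the nucleases and editors that limit self nucleic acid, 6 of 12 had values above 0, with a median of -0.04. Mre11a, a DNA repair nuclease gene, had 0.46 (SE 0.23, edgeR adjusted p = 0.948).

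For C13 against DMSO the same lists held 6 of 12, 7 of 15, 7 of 17, 9 of 15 and 8 of 12 genes with values above 0, in the order above, and medians between -0.04 and 0.12. Xrcc5, which encodes a Ku subunit, was at 0.53 on the log2 scale (SE 0.28), and Traf3, a ubiquitin ligase gene of this route, had 0.27 (SE 0.15). Zdhhc1 had 0.91 (SE 0.58) and Rnaseh2c, a subunit gene of ribonuclease H2, had 0.23 (SE 0.21). Each of these 4 had an edgeR adjusted p of 0.999.

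The nascent share of the interferon outputs was also high as a list. All 16 had a pooled share above the 2.50% of the median gene, and the list's median was 6.51%. The median was 4.09% in the scaffold list, 3.82% in the nuclease list and between 2.28% and 2.58% in the other 3. Rsad2 (18.4%) and Isg15 (19.0%), a ubiquitin-like interferon output, were still below Trex1. The 8 members had a median of 4.89%, with Trex1 above every gene of the 6 lists, of which Irf7 with 20.97% was highest.

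The genes whose total log2 CPM followed each member most closely over the 12 libraries are given as a description. All points share the same libraries and depth. For Ikbke they were Tbcel (Pearson's r = 0.94) and Cybb (r = 0.94), with r of 0.64 and 0.74 without the 2 libraries farthest from the median, both of C13 and sham cells. For Sting1 they were Ncapd2 (r = 0.96) and Zfp639 (r = 0.94), with 0.92 and 0.91 without theirs. For Cgas the nearest was Usb1 (r = 0.90), for Tbk1 Vav3 (r = 0.93), for Samhd1 Kat7 (r = 0.92) and for Trex1 Grhpr (r = 0.92). Irf3 was nearest to Arhgap44 (r = 0.90) and Mavs to 9630010A21Rik (r = 0.91), the last with 0.50 without its 2 farthest libraries. Between the 8 genes themselves r lay between -0.63 (Tbk1 and Irf3) and 0.68 (Mavs and Trex1).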

How the data were processed

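SIM-A9 cells in 4 groups of 3 libraries were profiled by SLAM-seq with a 3′ end kit. The authors deposited 2 tables of raw counts per Ensembl gene, nascent and total, with the replicates kept apart, per the file headers. Reads were mapped to GRCm38 according to the submitters' processing notes. How they were aligned, counted, annotated and called nascent is not given in the sources used here. Of 30994 row IDs, 30940 matched the GENCODE M21 annotation, and 0 columns lacked a sample.

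Libraries were scaled within each table by TMM. Counts were fitted with edgeR 4.0.16 in R 4.3.3 (quasi-likelihood, 4 group means over all 12 libraries). After filterByExpr, 7078 nascent and 11827 total genes were tested, with Benjamini-Hochberg adjustment over all of them and a threshold of 0.05. The comparisons were 4 pairwise, 2 averaged and 1 interaction. Nascent and remaining reads were also fitted jointly with a term per library. Mavs, filtered from the nascent table, was tested by exact permutation of CPM. The scripts were tested on simulated data.

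Alternatives were DESeq2 1.42.0, its size factors, no filter, a replicate block, leaving out each library or both that stood apart, fits of the compared groups alone, and nascent reads scaled to total library sizes. Division by common factors and leaving libraries out of the pooled nascent share were chosen after seeing the data. Replicates of a group differed by more than sampling noise (chi-square per degree of freedom of at least 28.0).

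The named genes are the 8 members, Mok, per pathway list the 2 genes with the smallest p in each averaged comparison of total RNA, and the 2 closest genes per member. Some are counted here without their values. Members and lists were chosen with earlier results of these data known. Fold changes are given only where they exceed their standard error, a rule set after the values were seen. Protein sequences were not used here.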

Additional observations from a re-analysis of the deposited data

How the results depend on the processing

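Under each alternative run, 0 of the genes tested among the 8 were called in nascent and in total RNA. The fits of the compared groups alone covered only the 4 pairwise comparisons. The joint fit, with 7 of the 8 genes and 0 called, was repeated only with DESeq2 size factors and without each of the 12 libraries. Of 677 alternative values of the 39 fold changes larger than their standard error, 1 changed sign. That was nascent Sting1 in DMSO and TDP-43 against DMSO and sham cells, 1.01 in the fit as reported and -0.090 with nascent reads scaled to total library sizes. The cause was not tested. Among the 115 fold changes within 1 standard error, 229 of 1955 alternative values changed sign, and no direction is given for them.

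Leaving out single libraries gave total Ikbke log2 fold changes of -0.88 to -0.31 for C13 against DMSO with sham aggregates and 0.38 to 0.94 for TDP-43 against sham with C13. Nascent Cgas, TDP-43 against sham with C13, was at 2.36 to 4.58. With the replicate block these 3 values were -0.64, 0.69 and 2.98, the edgeR adjusted p-values were 0.726, 0.451 and 0.733, and 0 members were called. The block called 0 nascent genes and 0 to 2 total genes per comparison. Same-numbered libraries deviated together in 0 of 18 nascent and 2 of 18 total pairs (r over 0.1). Other pairs did so in 0 of 36 and 1 of 36. Median r was 0.011 in nascent and 0.022 in total RNA for same-numbered pairs, and -0.010 and -0.0094 for other pairs. These values do not settle whether the numbers pair the libraries. Of the libraries, 6 of 12 nascent and 8 of 12 total libraries correlated best with their own number. Over all genes, DESeq2 called 7 to 72 nascent and 8 to 108 total genes per comparison, and the fit with no filter 6 to 38 and 10 to 124, where the fit as reported called 0 or 1 and 0. With DESeq2, nascent Cgas under C13 had an adjusted p of 0.176. Over all its alternatives the adjusted p was 0.176 to 0.916.

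Nascent reads were few for Mavs (98 in all, 80 of them in 1 library), Tbk1 (126) and Irf3 (258). Whether read depth or the spread between libraries limits their tests was not tested. The pooled Mavs share was 0.252% to 1.55% with single libraries left out, and those of the other 7 genes moved by less than 1.5 times.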
